A study of Saccharomyces cerevisiae with 4 samples.

Results

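The tricarboxylic acid cycle enzymes described here are the products of 10 nuclear genes of Saccharomyces cerevisiae, taken by open reading frame (ORF) name: CIT1 (YNR001C), CIT2 (YCR005C), ACO1 (YLR304C), IDH1 (YNL037C), IDH2 (YOR136W), KGD1 (YIL125W), KGD2 (YDR148C), LSC1 (YOR142W), FUM1 (YPL262W) and MDH1 (YKL085W). All 10 were among the 5441 ORFs listed, and all 10 were among the 4997 kept by a minimum of 200 counts summed over the libraries. Ribosome footprints, the mRNA fragments that ribosomes shield from nuclease, were counted per ORF in 4 libraries of strain Y7092, a haploid laboratory strain, after plasmid genes had been induced for 2 h in defined medium. The groups were vps35::natMX cells with pAG416GAL-TIF4631, vps35::natMX cells with pAG416GAL-ccdB, VPS35 wild-type cells with pAG416GAL-TIF4631 and VPS35 wild-type cells with pAG416GAL-ccdB. VPS35 encodes a core retromer subunit, TIF4631 encodes the initiation factor eIF4G1 behind a galactose-inducible promoter, and the ccdB plasmid is the control. Each group is 1 library, so no comparison between a pair of libraries has a replicate check. A footprint count reflects both the amount of an mRNA and how heavily it is translated, so fewer ribosomes per mRNA cannot be told apart from less mRNA.

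The cycle oxidises acetyl groups in the mitochondrial matrix and feeds electrons to the respiratory chain, and its intermediates supply carbon for glutamate and other amino acids. Citrate synthase joins acetyl-CoA to oxaloacetate, aconitase and isocitrate dehydrogenase lead on to 2-oxoglutarate, and the later enzymes return the carbon to oxaloacetate. In budding yeast many of these genes are repressed by glucose and are under the Hap2/3/4/5 activator, which binds CCAAT boxes. Under the retrograde pathway, Rtg1 and Rtg3 bind R boxes with the core GTCAC and CIT2, the peroxisomal citrate synthase, is the classical target.

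Summed counts were 16341045 in the vps35 deletion library with TIF4631, 11240681 in the deletion control, 18067205 in the library labelled as wild type with TIF4631 and 17669055 in the wild-type control. The deleted gene VPS35 had 10 and 9 counts in the deletion libraries with the TIF4631 and control plasmids, against 1974 and 2187 counts in the wild-type libraries in the same plasmid order. TIF4631 stood at 6217 CPM (counts per 1000000 after TMM scaling of library sizes) in the deletion library with its plasmid, against 435 CPM in the deletion control. In the library labelled as wild type with TIF4631 it stood at 403 CPM, against 454.7 CPM in the wild-type control, so the targeted gene went against that label. URA3, the marker of the plasmid backbone, stood at 117.9 CPM in the deletion library with TIF4631 and between 731.7 and 884.3 CPM in the other libraries. The 3 alpha-cell marker genes measured summed to between 828 and 1061 CPM, and the 6 a-cell markers to between 5.47 and 12.9 CPM; Y7092 is an alpha strain. Both sums were highest in the deletion library with TIF4631, the first through SAG1 alone (log2 ratio 0.79 over the deletion control, against -0.07 for STE3 and -0.19 for MF(ALPHA)2). In the second, STE2 had 92 counts in that library and 13 in the deletion control, and the other a-cell markers between 7 and 59 counts and between 3 and 26. Among the a-cell markers 1, MFA2, was at 0 in 1 library.

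Regulatory sequence is shown for the gene pairs whose footprint ratios differed most between libraries, CIT1 with CIT2 and IDH1 with IDH2. Each window is the 300 bases that end 100 bases before the start codon in the R64 assembly (sacCer3) of RefSeq, read on the coding strand. They are chrXIV:631162-631461 (minus strand) for CIT1, chrIII:122429-122728 (minus) for CIT2, chrXIV:559103-559402 (minus) for IDH1 and chrXV:579850-580149 (plus) for IDH2. Capitals mark GTCAC and CCAAT on either strand, which read GTGAC and ATTGG where they lie on the opposite one.
CIT1: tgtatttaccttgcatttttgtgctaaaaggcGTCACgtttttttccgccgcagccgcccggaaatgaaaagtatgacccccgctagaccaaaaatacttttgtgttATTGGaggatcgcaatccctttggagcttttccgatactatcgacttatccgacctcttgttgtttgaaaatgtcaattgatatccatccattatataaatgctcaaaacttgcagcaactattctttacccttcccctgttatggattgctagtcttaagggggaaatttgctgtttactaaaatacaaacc
CIT2: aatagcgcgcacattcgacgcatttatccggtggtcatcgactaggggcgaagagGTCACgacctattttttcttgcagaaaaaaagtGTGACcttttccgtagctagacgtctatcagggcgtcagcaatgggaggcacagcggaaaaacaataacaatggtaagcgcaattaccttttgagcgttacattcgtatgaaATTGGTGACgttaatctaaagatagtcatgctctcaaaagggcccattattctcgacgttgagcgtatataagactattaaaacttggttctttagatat
IDH1: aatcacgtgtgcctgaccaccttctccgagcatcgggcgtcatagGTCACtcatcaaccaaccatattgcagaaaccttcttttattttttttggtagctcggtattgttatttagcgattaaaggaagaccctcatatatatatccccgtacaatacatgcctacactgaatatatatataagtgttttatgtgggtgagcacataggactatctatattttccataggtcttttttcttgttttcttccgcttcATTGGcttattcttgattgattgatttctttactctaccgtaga
IDH2: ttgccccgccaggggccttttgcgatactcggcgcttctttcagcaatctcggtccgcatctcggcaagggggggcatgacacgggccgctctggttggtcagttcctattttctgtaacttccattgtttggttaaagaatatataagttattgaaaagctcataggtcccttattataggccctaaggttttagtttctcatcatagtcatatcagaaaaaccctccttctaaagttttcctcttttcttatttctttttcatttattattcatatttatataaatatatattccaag
The CIT2 window held 3 matches to GTCAC, the most of the 10 genes, and 1 to CCAAT, which shares 1 base with the nearest GTGAC. The CIT1 and IDH1 windows each held 1 match to each motif, and the IDH2 window held none. GTCAC was present upstream of 5 of the 10 genes, against 29.2% of the windows of all 5421 ORFs that have one, and CCAAT upstream of 8 of 10, against 44.2%. Both were present in 5 of 10 windows, against 13.4%. Only the windows of IDH2 and LSC1 among the 10 held neither. These matches describe letters in a window that can overlap a neighbouring gene, and binding was not measured here.

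Exact sequence likeness was checked, since the handling of reads with several matches is not given in the sources used here. No 28-nt stretch of any of the 10 coding sequences, or of LSC2, occurred a second time in the genome, while shorter reads and mismatched alignment were not examined. CIT1 and CIT2 are paralogues, and the longest run they share is 21 nt, at chrXIV:630801-630821 in CIT1 and chrIII:122125-122145 in CIT2 (coding strand, shown whole because it is where their reads would be hardest to separate).
CIT1/CIT2 shared run: TATGGTGGTATGAGAGGTATT
The longest shared run of IDH1 with IDH2 was 11 nt, that of KGD1 with KGD2 was 11 nt and that of LSC1 with LSC2 was 10 nt.

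The cycle genes were among the ORFs with the highest footprint density, with at least 9 of the 10 in the top 10% of ORFs by RPKM in each library. Together they held 1.11% of all counts in the deletion library with TIF4631 (95% Clopper-Pearson interval 1.10% to 1.11%), 1.47% in the deletion control (1.46% to 1.48%), 1.58% in the library labelled as wild type with TIF4631 (1.57% to 1.58%) and 1.54% in the wild-type control (1.53% to 1.54%). The deletion library with TIF4631 was thus the low one. Intervals throughout cover counting error only, since each group is 1 library. They treat reads as independent molecules, which reads amplified by PCR without molecular identifiers are not, so they may be too narrow. They are narrowest at high counts, so shares of all ORFs beyond counting error are not matched to the counts of these 10 genes.

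Levels between genes were compared by the deposited RPKM, which is per length. In the wild-type control CIT1 was highest at 2078 RPKM, followed by MDH1 at 1956, ACO1 at 1708, IDH2 at 1117, KGD2 at 933.2, IDH1 at 722.2, FUM1 at 568.1, LSC1 at 530.0, KGD1 at 480.2 and CIT2 at 328.6 RPKM. The median of all ORFs in that library was 37.0 RPKM. All 10 genes lay between rank 108 and rank 509 of 5441 ORFs there. The order was the same in the deletion control, where the range ran from 1863 RPKM for CIT1 to 248.8 RPKM for CIT2. In the deletion library with TIF4631 the top of the order differed, with ACO1 at 1310, MDH1 at 1236 and CIT1 at 1205 RPKM. In the library labelled as wild type with TIF4631 only KGD1 (507.9 RPKM) and LSC1 (501.2 RPKM) changed places relative to the wild-type control.

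**Figure D1:**
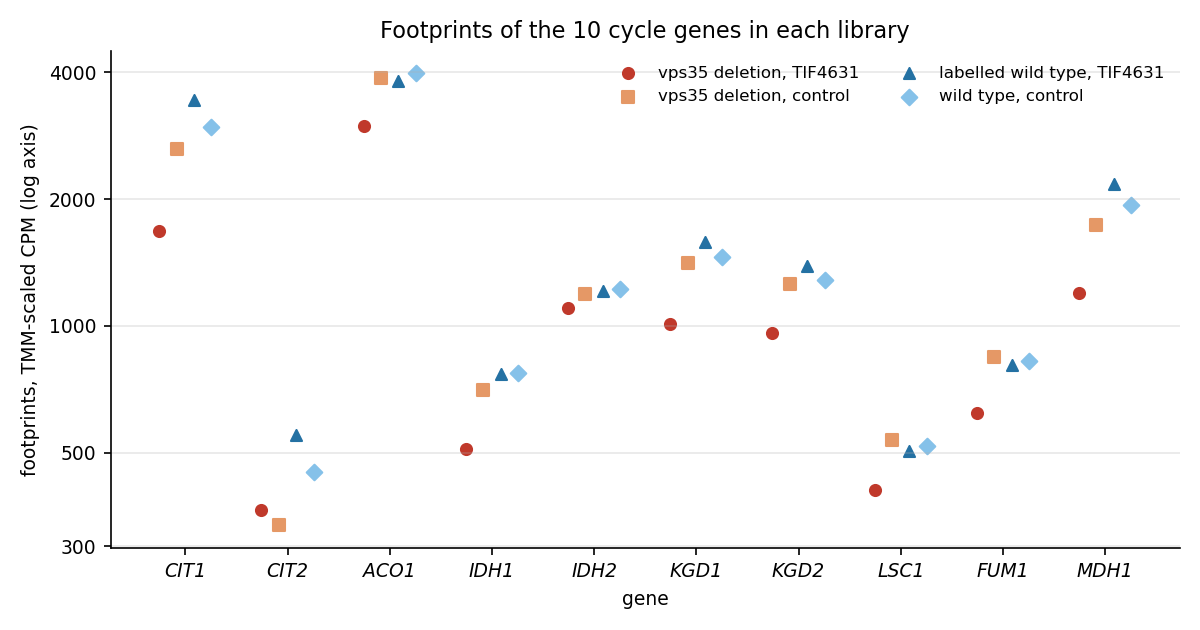
TMM-scaled footprint counts as CPM (log axis) of the 10 cycle genes, with 1 point per library. The vps35 deletion library with TIF4631 is the lowest for 9 of the 10 genes, and for CIT2 the deletion control is lower still, at 336.3 CPM. The share of all ORFs with their lowest value in that TIF4631 library is not given here. All ORFs had an interquartile range of log2 ratios of -0.21 to 0.20 with TIF4631 in deletion cells. Between the wild-type libraries it was -0.12 to 0.13.

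Of the 10 genes CIT1, an entry enzyme, differed most between libraries and MDH1 came next. CIT1, the mitochondrial citrate synthase, had 1682 CPM in the deletion library with TIF4631, 2623 CPM in the deletion control, 3448 CPM in the library labelled as wild type with TIF4631 and 2970 CPM in the wild-type control. It was lowest in the first and highest in the third, 2.05-fold apart. CIT2, its peroxisomal isozyme, had 365.8, 336.3, 549.4 and 450.8 CPM in the same order of libraries. Both deletion libraries were below both wild-type libraries for CIT2. ACO1, aconitase, which turns citrate into isocitrate, had 2979, 3878, 3815 and 3978 CPM, so that 3 libraries lay close together and the deletion library with TIF4631 below them.

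IDH1 and IDH2 encode the regulatory and the catalytic subunit of NAD-dependent isocitrate dehydrogenase. IDH1 had 509 CPM in the deletion library with TIF4631, 702.7 CPM in the deletion control, 770.6 CPM in the library labelled as wild type with TIF4631 and 773.6 CPM in the wild-type control. IDH2 had 1104, 1188, 1209 and 1226 CPM in that order, and its highest library was 1.11-fold above its lowest, the narrowest span of the 10 genes.

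KGD1 and KGD2 encode the E1 and E2 components of 2-oxoglutarate dehydrogenase. KGD1 had 1008 CPM in the deletion library with TIF4631, 1408 CPM in the deletion control, 1585 CPM in the library labelled as wild type with TIF4631 and 1459 CPM in the wild-type control. KGD2 had 961.6, 1258, 1391 and 1289 CPM in that order. The order of the libraries was the same for both components. LSC1, the alpha subunit of succinyl-CoA ligase, had 408.6, 536.8, 503.4 and 518.3 CPM, highest in the deletion control.

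FUM1, fumarase, which is found in mitochondria and cytosol, had 621 CPM in the deletion library with TIF4631, 844.2 CPM in the deletion control, 807.9 CPM in the library labelled as wild type with TIF4631 and 827.4 CPM in the wild-type control. It resembled LSC1 in that the deletion control was the highest library. MDH1, the mitochondrial malate dehydrogenase that regenerates oxaloacetate, had 1198, 1741, 2167 and 1942 CPM in that order. It shared both its lowest and its highest library with CIT1, KGD1 and KGD2.

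TIF4631 overexpression within vps35 deletion cells is the only comparison in which the plasmid raised its gene. In that comparison 9 of the 10 cycle genes were lower beyond counting error and 1, CIT2, was higher, against 31.3% of all 4997 ORFs lower and 30.1% higher. The median log2 ratio of the 10 was -0.42, against 0.0057 for all ORFs kept. CIT1 was lowest, at a log2 ratio of -0.64 (counting interval -0.66 to -0.62), 1.56-fold below its control, which placed it at percentile 3.72 of all ORFs. It was also the only one of the 10 past a rule of at least 1.5-fold lower, which 4.94% of all ORFs met, and 0 of 10 were 1.5-fold higher, against 3.6%. MDH1 followed at -0.54 (-0.57 to -0.51), KGD1 at -0.48 (-0.51 to -0.45), IDH1 at -0.47 (-0.51 to -0.42) and FUM1 at -0.44 (-0.48 to -0.40). LSC1 stood at -0.39, KGD2 at -0.39 and ACO1 at -0.38, so that 8 of the 10 genes lay between -0.64 and -0.38. Outside that range were IDH2 at -0.11 (-0.14 to -0.07) and CIT2 at 0.12 (0.06 to 0.18). URA3 was lower in the same library, at a log2 ratio of -2.63, and SAG1 and STE2 were higher in it, while STE3 and MF(ALPHA)2 were lower. The part of these in the values of the cycle genes was not tested.

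**Figure D2:**
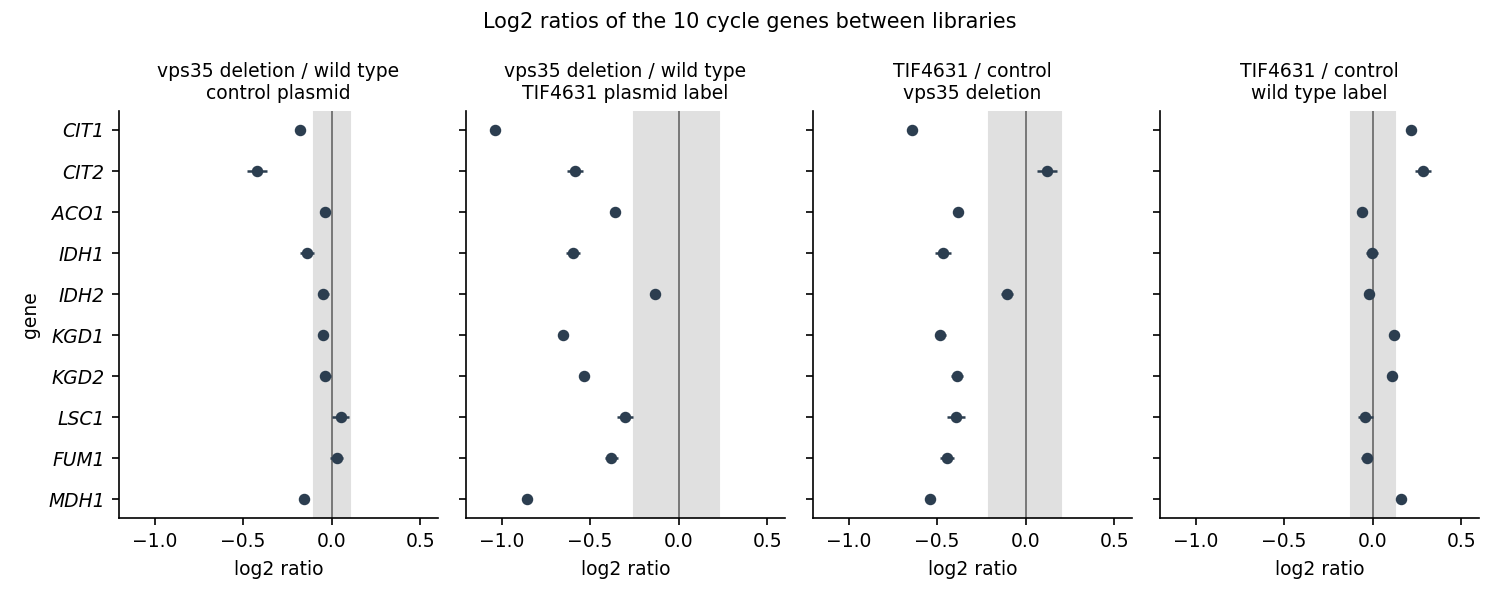
Log2 ratios of the 10 cycle genes in the 4 comparisons of a pair of libraries, with 95% counting intervals (bars, often smaller than the points) and the interquartile range of all 4997 ORFs in grey. Under TIF4631 in vps35 deletion cells 8 genes lie between -0.64 and -0.38, while IDH2 at -0.11 and CIT2 at 0.12 lie inside the grey band.

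The effect of losing VPS35 without extra TIF4631 was read between the control-plasmid libraries. Here most cycle genes lay near 0. CIT2 had the lowest log2 ratio of the 10, -0.42 (-0.48 to -0.37), which placed it at percentile 2.66 of all ORFs. CIT1 at -0.18, MDH1 at -0.16 and IDH1 at -0.14 followed, and KGD1, IDH2, ACO1 and KGD2 lay between -0.051 and -0.035. FUM1 at 0.029 (-0.0083 to 0.066) was within counting error and LSC1 stood at 0.051 (0.0035 to 0.097). In all, 8 of 10 were lower and 1 higher beyond counting error, against 17.3% and 17.2% of all ORFs. Past 1.5-fold were 0 of 10 in either direction, against 1.34% of all ORFs downward and 1.12% upward. A call beyond counting error depends on counts. KGD2 at -0.035 (-0.066 to -0.0052) was called, from 14305 and 22705 counts in the deletion and wild-type controls. HAP5 at 0.19 (-0.13 to 0.49), from 152 and 207 counts in the same libraries, was not. The shares of all ORFs beyond counting error are thus not matched for counts. The median of the 10 was -0.049, against 0.00025 for all ORFs, and with total count scaling 5 were lower and 2 higher. The split of all ORFs beyond counting error then read 1063 higher and 702 lower, in place of 858 and 864.

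Under the TIF4631 plasmid label, the deletion library in which TIF4631 was raised was set against the library labelled as wild type with TIF4631, in which it was not, so strain and raised TIF4631 cannot be told apart. All 10 cycle genes were lower beyond counting error, against 35.3% of all ORFs, and 0 were higher, against 33.8%. Their median was -0.56, against -0.0018 for all ORFs. CIT1 at -1.04 (-1.06 to -1.01), MDH1 at -0.85, KGD1 at -0.65, IDH1 at -0.60 and CIT2 at -0.59 were at least 1.5-fold lower, 5 of 10 against 7.88% of all ORFs, and 0 were 1.5-fold higher, against 6.38%. KGD2 at -0.53, FUM1 at -0.38, ACO1 at -0.36, LSC1 at -0.30 and IDH2 at -0.13 (-0.16 to -0.10) were not. With total count scaling 2 of the 10 passed that rule, and all ORFs split into 415 higher and 306 lower, in place of 319 and 394. With totals that leave out the 50 most abundant ORFs 3 passed, which were CIT1, MDH1 and KGD1.

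The library labelled as wild type with TIF4631 was set against the wild-type control. No excess of TIF4631 was measured in it, so the values describe a pair of libraries. CIT2 had the highest log2 ratio, 0.29 (0.24 to 0.33), followed by CIT1 at 0.22 (0.20 to 0.23), MDH1 at 0.16, KGD1 at 0.12 and KGD2 at 0.11. IDH1 at -0.0056, IDH2 at -0.021 and LSC1 at -0.042 were within counting error, and FUM1 at -0.034 and ACO1 at -0.060 were lower beyond it. Thus 5 of 10 were higher and 2 lower, against 24% and 23.6% of all ORFs, and 0 of 10 passed 1.5-fold in either direction, against 1.82% of all ORFs upward and 0.48% downward. Scaled by total counts, 5 of the 10 were higher and 5 lower, and all ORFs split into 930 higher and 1525 lower, in place of 1199 and 1177. Past 1.5-fold the split then read 78 higher and 37 lower, in place of 91 and 24.

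The TIF4631 log2 ratio of deletion cells less that of wild-type cells, the difference of differences of the design, was below 0 for all 10 cycle genes beyond counting error, against 31.5% of all ORFs, and above 0 for 0 of 10, against 27.5%. The median was -0.43, against -0.018 for all ORFs. CIT1 at -0.86 (-0.89 to -0.83), MDH1 at -0.70 (-0.73 to -0.66) and KGD1 at -0.60 (-0.64 to -0.56) were past 1.5-fold, 3 of 10 against 7.68% of all ORFs, with 0 above 0 by that much, against 6.9%. IDH2 was nearest to 0 at -0.085 (-0.13 to -0.043). Its wild-type side is the library labelled as wild type with TIF4631, so these values do not measure an interaction of the genes. Scaled by total counts, 9 of the 10 were below 0 beyond counting error and 2 past 1.5-fold, with KGD1 at -0.55, and all ORFs split into 1620 above and 1326 below 0, in place of 1376 and 1576.

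A single model leaves residual spread, an additive fit of strain and plasmid label to the 4 libraries (edgeR quasi-likelihood test, Benjamini-Hochberg adjusted over 4997 ORFs). With 1 residual degree of freedom it takes any interaction for spread, and without the library labelled as wild type with TIF4631 it would have none. For deletion of VPS35, 0 of the 10 cycle genes passed an edgeR adjusted p of 0.05, against 0.62% of all ORFs, and 0 passed by DESeq2 or limma. Unadjusted, edgeR put 1 of 10, CIT2, under 0.05, against 6.96% of all ORFs. CIT1 had the largest log2 change, -0.61 (SE 0.274, edgeR adjusted p = 0.728), and CIT2 the smallest adjusted p, at -0.50 on the log2 scale (SE 0.163, edgeR adjusted p = 0.394). All 10 estimates for deletion were below 0, the smallest being IDH2 at -0.089 (SE 0.193). These estimates draw on both plasmid labels, so they take in the deletion library in which TIF4631 was raised. They do not measure deletion alone. Between the control-plasmid libraries LSC1 at 0.051 and FUM1 at 0.029 were above 0 and the other cycle genes below it, with CIT1 at -0.18. For the TIF4631 plasmid 0 of 10 passed by edgeR, DESeq2 or limma, and 0 had an unadjusted edgeR p under 0.05, against 0% of all ORFs adjusted and 3.36% unadjusted by edgeR. The estimates lay between -0.24 for FUM1 and 0.20 for CIT2, each with an edgeR adjusted p = 0.999. They also draw on the library labelled as wild type with TIF4631, in which TIF4631 was not raised.

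Partner genes allow a comparison within a library, where scaling cancels. Isocitrate dehydrogenase is built of equal numbers of both subunits, yet IDH1 had a lower footprint density than IDH2 in every library. The ratio IDH1/IDH2 was 0.473 (0.461 to 0.485) in the deletion library with TIF4631 and 0.607 (0.590 to 0.624) in the deletion control, against 0.654 in the library labelled as wild type with TIF4631 and 0.647 (0.633 to 0.661) in the wild-type control. Between the deletion libraries the ratio differed by -0.36 on the log2 scale (-0.41 to -0.31). Between the wild-type libraries it differed by 0.015 (-0.029 to 0.059), within counting error.

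The ratio of CIT1 to CIT2, which weighs the mitochondrial against the peroxisomal citrate synthase, was 4.42 (4.29 to 4.54) in the deletion library with TIF4631 and 7.49 (7.24 to 7.74) in the deletion control. It was 6.02 in the library labelled as wild type with TIF4631 and 6.32 (6.18 to 6.48) in the wild-type control. The deletion libraries were the lowest and the highest of the 4, a log2 difference of -0.76 (-0.82 to -0.70) with TIF4631 over control. Their upstream windows, shown above, differ in having 1 and 3 GTCAC matches. A link between these matches and the ratio was not tested.

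KGD1/KGD2 varied less, with 0.476 in the deletion library with TIF4631, 0.509 in the deletion control, 0.518 in the library labelled as wild type with TIF4631 and 0.515 in the wild-type control. LSC1/LSC2, the alpha and beta subunits of succinyl-CoA ligase, gave 1.53, 1.41, 1.45 and 1.52 in that order. The largest log2 difference in these ratios among the 4 comparisons was -0.12 for KGD1/KGD2 and 0.12 for LSC1/LSC2.

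**Figure D3:**
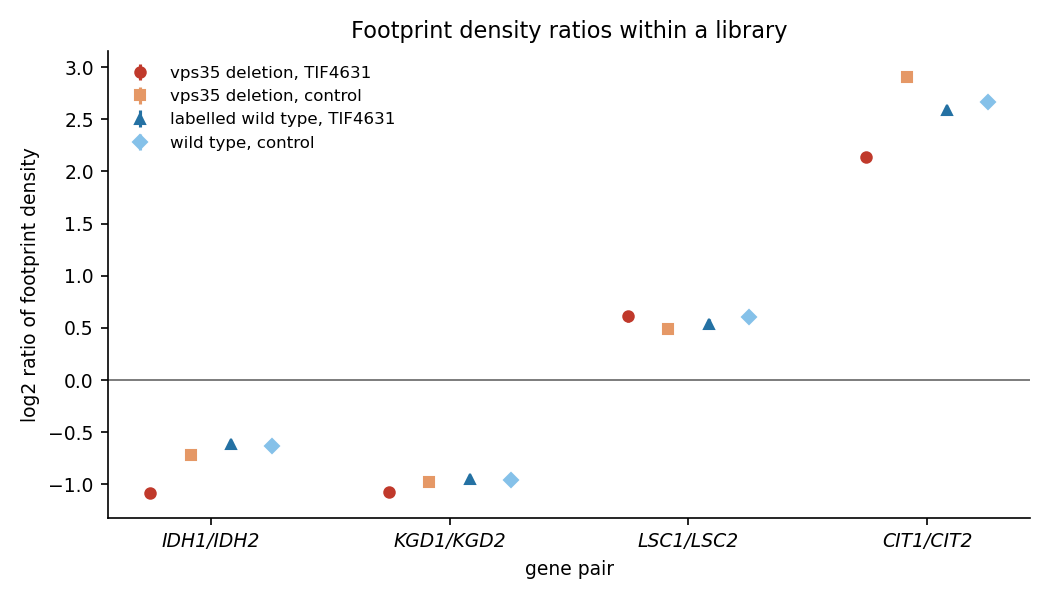
Log2 ratio of footprint density (counts per length) between partner genes, with 1 point per library and 95% counting intervals mostly hidden by the points. IDH1/IDH2 is lowest in the deletion library with TIF4631, at -1.08, and CIT1/CIT2 spans 2.14 to 2.90 between the deletion libraries.

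The other genes around the cycle were read from lists chosen by function. Of 9 further cycle enzymes, 8 were lower and 0 higher beyond counting error with TIF4631 in vps35 deletion cells, against 31.3% and 30.1% of all ORFs, with a median of -0.51. The succinate dehydrogenase genes SDH1 at -0.61, SDH2 at -0.56 and SDH4 at -0.53, the mitochondrial isocitrate dehydrogenase IDP1 at -0.55 and LSC2 at -0.51 were near the 10 genes above. LPD1 stood at -0.45. SDH3, also a succinate dehydrogenase gene, at -0.24 and KGD4 at -0.21 were lower by less. CIT3, a minor mitochondrial citrate synthase, was within counting error at -0.06.

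Of 4 isozymes that work outside the cycle, MDH2, the cytosolic malate dehydrogenase of gluconeogenesis, had 6546 counts in the deletion library with TIF4631 and 2350 in the deletion control, against 2198 and 2389 counts in the wild-type libraries in the same plasmid order. Its log2 ratio with TIF4631 in deletion cells was 0.93 (0.86 to 0.99), while mitochondrial MDH1 stood at -0.54. MDH2 was also higher with deletion alone, at 0.61, as was the cytosolic isocitrate dehydrogenase IDP2 at 0.73, from 481 counts in the deletion control and 449 in the wild-type control. The peroxisomal isozymes MDH3 at -0.16 and IDP3 at 0.50 differed in sign with TIF4631 in deletion cells.

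Among 7 measured genes of pyruvate entry, 4 were lower and 2 higher beyond counting error in that comparison, with a median of -0.20. The same 31.3% and 30.1% of all ORFs stand beside these counts, and 2 of 7 higher is near that share. The pyruvate dehydrogenase genes PDB1 at -0.36 and LAT1 at -0.30 were lower. The pyruvate carrier subunits split, with MPC2 at 0.79 and MPC3, which replaces MPC2 in respiring cells, at -0.36. Of 7 carriers of cycle intermediates, 5 were lower and 0 higher, against 31.3% and 30.1%, led by YHM2, a citrate and 2-oxoglutarate carrier, at -0.92 and ODC1, an oxodicarboxylate carrier, at -0.88, with its paralogue ODC2 highest at 0.06, within counting error. OAC1, the oxaloacetate carrier, was lower with deletion under the control plasmid, at -0.77.

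The regulators of these genes were read in the same comparison. All 4 HAP genes were lower beyond counting error with TIF4631 in deletion cells, against 31.3% of all ORFs, between -0.57 for HAP3, from 228 and 231 counts in the TIF4631 and control libraries, and -0.20 for HAP4, the regulated subunit. Of 8 retrograde pathway genes, 5 were higher and 2 lower, against 30.1% and 31.3% of all ORFs. The higher ones were MKS1, a negative regulator, at 0.27, RTG3 at 0.24, GRR1 at 0.21, BMH1 at 0.20 and BMH2 at 0.14. RTG2 at -0.24 and LST8 at -0.23 were lower. The list holds regulators of opposite action, so these counts give no direction of the pathway. Of the 3 further retrograde targets measured, DLD3 stood at -0.08 and GDH2 at 0.14, and ATO3 at 0.57. Of the 3 measured genes that make glutamate from 2-oxoglutarate, or glutamine from glutamate (GLN1), GDH1 was lower at -0.64, GLT1 was lower at -0.31 and GLN1 was higher at 0.23.

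The same lists were read for deletion under the control plasmid. Of the 9 further cycle enzymes, 5 were lower and 1 higher beyond counting error, against 17.3% and 17.2% of all ORFs, with a median of -0.073 and a range from SDH3 at -0.20 to LSC2 at 0.16. The retrograde pathway genes had a median of -0.020, from GRR1 at -0.17 to RTG2 at 0.14, and the HAP genes one of 0.035, from HAP4 at -0.18 to HAP5 at 0.19. The isozymes outside the cycle had a median of 0.37, above their 0.21 with TIF4631 in deletion cells, with IDP3 lowest at -0.28. Pyruvate entry ran from MPC1 at -0.10 to MPC3 at 0.16, and the citrate carrier CTP1 was highest among the carriers, at 0.07. The further retrograde targets ran from DLD3 at -0.14 to ATO3 at 0.07, and the glutamate and glutamine genes from GLN1 at -0.02 to GLT1 at -0.0021. Of the 45 genes in these lists, 2 were 1.5-fold higher and 1 lower, against 1.12% and 1.34% of all ORFs. The higher ones were IDP2 and MDH2, and the lower one was OAC1.

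Under the TIF4631 plasmid label, deletion over wild type, 8 of the 45 genes were 1.5-fold lower and 4 higher, against 7.88% and 6.38% of all ORFs. Among the alpha-cell markers SAG1 also passed, at 0.61. The lower ones were SDH2 at -0.79, SDH1 at -0.74, SDH4 at -0.66, LPD1, the shared E3 subunit, at -0.62, ODC1 at -0.91, YHM2 at -0.89, OAC1 at -0.76 and GDH1 at -0.85. The higher ones were MDH2 at 1.65, IDP2 at 0.76, MPC2 at 0.66 and ATO3, a putative ammonium exporter, at 2.02. ATO3 had 1171 counts in the deletion library with TIF4631 and 539 in the deletion control, against 303 in the library labelled as wild type with TIF4631 and 797 in the wild-type control. It was the only listed gene past 1.5-fold between the wild-type libraries, at -1.39, against 1.82% of all ORFs higher and 0.48% lower. The library labelled as wild type with TIF4631 was thus its lowest.

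**Figure D4:**
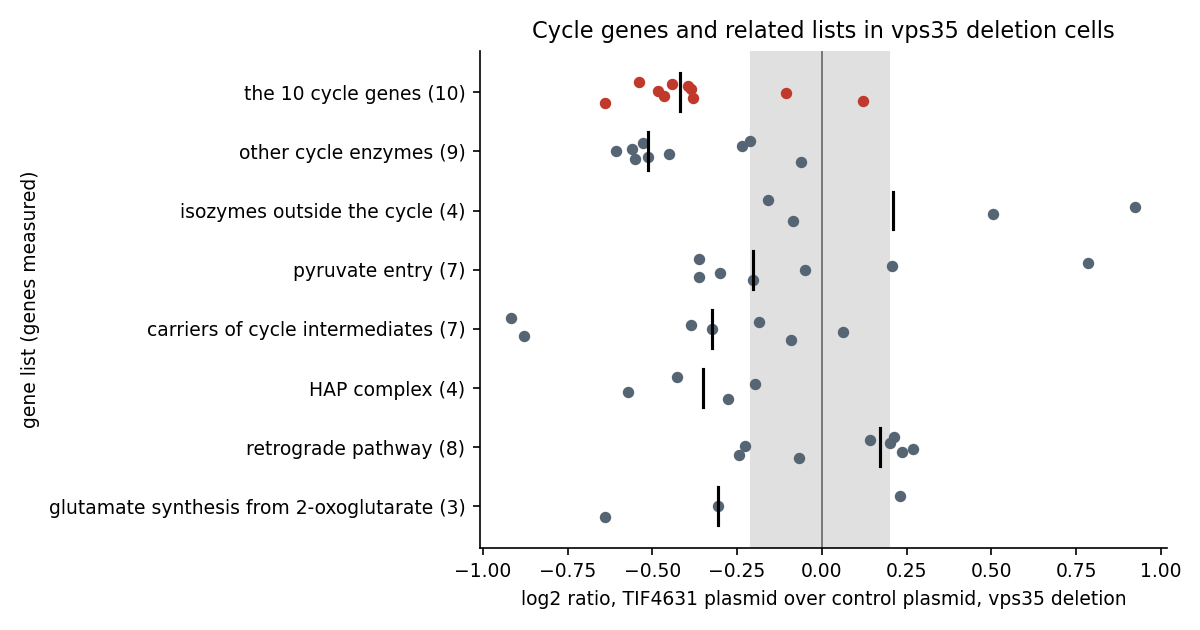
Log2 ratios with TIF4631 over the control plasmid in vps35 deletion cells for the 10 cycle genes (red) and 7 related lists (dark points), with each list's median as a black bar and the interquartile range of all ORFs as a grey band. The cycle genes have a median of -0.42, the other cycle enzymes -0.51 and the retrograde pathway genes 0.17. The retrograde list holds regulators of opposite action, so its median gives no direction of the pathway.

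The 5 ORFs whose centred log2 profile over the 4 libraries lay closest to the median profile of the 10 cycle genes, among 1539 ORFs with a mean of at least 100 CPM, were COX15, ADK1, MUP1, COX5A and DNM1, at Euclidean distances of 0.021 to 0.056. COX15, the nearest, had 153.9 CPM in the deletion library with TIF4631, 200.5 CPM in the deletion control, 222.6 CPM in the library labelled as wild type with TIF4631 and 209.2 CPM in the wild-type control. The likeness is over 4 libraries only and is given as a description.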

How the data were processed

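Ribosome footprints were sequenced from 4 yeast libraries, 1 per group. The submitters' processing notes name CASAVA, Bowtie2, cutadapt 1.3 and the genome build sacCer3. How reads were assigned to ORFs, and what became of reads with several matches, is not given in the sources used here. The deposited counts are whole reads per ORF, and the authors scaled the deposited RPKM by ORF length and dataset size, per the column names in the file headers. For 96.0% of matched ORFs the length it implies fell 15 nt short of the annotated one, to within 0.01 nt. Of 5441 ORFs, 5438 matched the R64 annotation. Replicate cultures are not described, so the model's p-values measure only spread between these libraries.

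Counts were scaled by TMM (edgeR 4.0.16 in R 4.3.3), with factors from 0.971 to 1.02. Log2 ratios used 0.5 added counts and 95% conditional binomial (Clopper-Pearson) intervals, and a ratio was beyond counting error where that interval excluded 0. The difference of differences and the density ratios used a normal approximation on log counts. DESeq2 1.42.0, limma 3.58.1, other scalings, 5 added counts and count minimums of 0 and 1000 were alternatives. Arrays, tables and plots were handled in Python 3.11.15 (scipy 1.17.1, numpy 2.4.6, pandas 2.3.3, matplotlib 3.10.9). The counting intervals were tested on simulated counts with counting error only, which cannot speak to spread between cultures. The edgeR additive fit was tested on simulated counts without an interaction of strain and plasmid label. All 10 cycle genes are named throughout. Of the related lists, genes past 1.5-fold between a pair of libraries are named, and the highest and lowest genes for TIF4631 in deletion cells and for deletion under the control plasmid, with further ones chosen after their values were seen. The genes and lists were chosen with earlier results of these data known. PYC1, PYC2, GDH3 and MF(ALPHA)1 were not analysed here. A further listed gene is not reported here and was left out of its list. A count of 0 allows up to 3 counts, or 0.166 to 0.267 CPM.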

Additional observations from a re-analysis of the deposited data

Results flagged for a closer look

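For 4 of the 10 cycle genes the log2 ratio of TIF4631 over control plasmid had opposite signs beyond counting error in vps35 deletion and in wild type, as it did for 17.8% of all ORFs. CIT1 stood at -0.64 in deletion and 0.22 in wild type, a difference of -0.86. MDH1 stood at -0.54 and 0.16, a difference of -0.70. KGD1 stood at -0.48 and 0.12, a difference of -0.60, and KGD2 at -0.39 and 0.11, a difference of -0.50. For LSC1 the ratio of deletion over wild type was -0.30 under the TIF4631 plasmid and 0.051 (0.0035 to 0.097) under the control plasmid, a difference of -0.35. This kind of sign change was met by 1 of the 10 genes and by 10.8% of all ORFs, so the 10 were near that share. With 1 library per group these differences were not tested, and each of them uses the library labelled as wild type with TIF4631, in which TIF4631 was not raised.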

How the results depend on the processing

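No paired analysis was possible because each group has 1 library, and leaving out a library removes a group. Of 50 log2 ratios of single cycle genes, 0 changed sign under any of the 6 alternatives. The largest shift, 0.073, came with total count scaling. With totals that leave out the 50 most abundant ORFs, 2 of these ratios left their main counting interval, and with total count scaling 26 did. That scaling also moved the median of the 10 genes to -0.49 for deletion under the TIF4631 plasmid and to 0.014 between the library labelled as wild type with TIF4631, in which TIF4631 was not raised, and the wild-type control. With a denominator that leaves out the 50 most abundant ORFs, other than the 2 of them that are cycle genes, the 10 genes held 1.51% and 2.04% in deletion cells with TIF4631 and control plasmids, and 2.23% and 2.15% in wild type. Without TIF4631 and the galactose genes measured, the shares were 1.16%, 1.55%, 1.68% and 1.63% in that order. The additive model passed 0 of the 10 genes under every alternative run. Over all ORFs it passed 31 for deletion by edgeR, 83 with total count scaling, 47 with DESeq2 size factors, 94 with no filter and 66 by DESeq2, and for the plasmid 0 by edgeR (168 at an unadjusted p below 0.05), 0 by limma, 2 with total count scaling, with DESeq2 size factors or at a minimum of 1000 counts, 4 with no filter and 6 by DESeq2. ORFs past 1.5-fold for deletion under the control plasmid numbered 56 higher and 67 lower, against 33 and 39 at a minimum of 1000 counts. Between those wild-type libraries 24 were lower, against 40 with no filter. Under the TIF4631 plasmid 4 of the 10 genes were 1.5-fold lower with no filter or at a minimum of 1000 counts, in place of 5. The cause was not tested. The lack of replicates limits every comparison.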
